A study of Mus musculus with 11 samples.

Results

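The cells described here were oligodendrocyte precursors and committed precursors, the immature stages of the lineage that makes myelin, in single-cell RNA sequencing of mouse brain after a transient stroke. They were chosen by measured values. A cell had to carry at least 1 UMI (unique molecular identifier, a count of 1 captured transcript) of at least 3 of the 6 genes Pdgfra, C1ql1, Vcan, Gpr17, Neu4 and Olig1, with Pdgfra, Gpr17 or Neu4 among them, and UMIs of fewer than 2 of the 7 genes Dcn, Col1a1, P2ry12, Tmem119, Cldn5, Aqp4 and Mog, which mark other cell types. Of 132437 cells with more than 500 genes, more than 1000 UMIs and under 25% mitochondrial UMIs, 100 met this rule. Levels of the 13 rule genes are therefore given as a description, with no test.

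The study asked how loss of Lrg1, which encodes the secreted leucine-rich alpha-2-glycoprotein, changes the cells of the brain after ischemia and reperfusion. Its 11 libraries, each from the right brain of 1 mouse, formed 4 groups: sham-operated wild-type mice (sham + WT, n = 3), sham-operated knockout mice (sham + Lrg1-/-, n = 3), and wild-type (MCAO/R + WT, n = 2) and knockout mice (MCAO/R + Lrg1-/-, n = 3) after 1 h of filament occlusion of the middle cerebral artery followed by reperfusion. The labels did not give the reperfusion time of these libraries, and the methods listed 1, 6, 12 and 24 h for the model. Wild-type mice were male C57BL/6 animals of 8 to 10 weeks, whereas the conventional knockout, which removes Lrg1 in every cell from exon 1 to the stop codon in exon 2, was bred on C57BL/6N, backcrossed for 4 generations and used at 3 months. Genotype, source and age thus cannot be told apart.

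Oligodendrocyte precursors divide and migrate throughout the adult brain, carry the receptor for platelet-derived growth factor and receive synaptic input from neurons through glutamate and GABA receptors. When they differentiate, they lose Pdgfra, pass through a committed stage marked by the receptor Gpr17 and the sialidase Neu4, and then switch on premyelinating genes such as Bcas1 and Enpp6 before the structural myelin genes. They are known as the source of new oligodendrocytes after white matter injury.

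Between 37159497 and 171813031 UMIs were counted per library, with a median of 3190 to 11504 UMIs per passing cell. Lrg1 (chr17:56119678-56122001, minus strand, GRCm38) had 192, 662 and 280 UMIs over all barcodes in the 3 sham + WT libraries and 17868 and 16233 in the 2 MCAO/R + WT libraries. The 6 knockout libraries held 1 Lrg1 UMI between them. Haemoglobin transcripts took 0.02 to 0.05% of UMIs in the WT libraries and at least 4.35% in each of the 6 Lrg1-/- libraries. Any 2 libraries shared 5 to 146 cell barcodes, at most 1.15% of the smaller library. No barcode belonged to a chosen cell in both of any 2 libraries.

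The cells carried the lineage's other markers. Of 8 precursor genes that the rule did not use (Cspg4, Ptprz1, Lhfpl3, Matn4, Cacng4, Sox10, Olig2 and Cspg5), at least 3 were detected in 90 of the 100 cells and at least 5 in 76, while 4 cells had none. The label therefore held for most of the cells. Some of the 8 genes were not particular to precursors, with Ptprz1 in 70.7% of astrocytes and Sox10 in 33.9% of mature oligodendrocytes. Lhfpl3 was in 88% of the chosen cells, 5.61% of astrocytes and 4.95% of mature oligodendrocytes. Of the 10 cells with under 3 of the 8 genes, 6 had at least 3 markers of another type, not counting mature oligodendrocyte, microglial and haemoglobin genes. Among the rule genes themselves, 34 cells had exactly 3 of the 6, 21 had 4, 26 had 5 and 19 had all 6. The 34 cells just inside the threshold had a median of 4 of the 8 other markers, with 25 at 3 or more. The 189 cells just outside it, with 2 of the 6 genes, had a median of 1, with 24 at 3 or more.

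The cells' own depth ranged from 1018 to 42850 UMIs, with a median of 8700 UMIs and 3462 genes. The median was 11900 UMIs over the 48 WT cells and 5697 over the 52 Lrg1-/- cells. RNA of other cell types was present to different degrees. At least 3 of the haemoglobin genes were detected in 45 of the 52 Lrg1-/- cells and in 0 of the 48 WT cells. At least 3 astrocyte markers were found in 18 WT and 7 Lrg1-/- cells, 3 endothelial markers in 20 and 9, and 3 microglial markers in 10 and 12. Mature oligodendrocyte markers reached 3 in 10 cells, choroid plexus markers in 5 cells, which were all Lrg1-/-, and ependymal markers in none. Scrublet scores marked 2 of the 100 cells as doublets, 1 of them in a library where the automatic threshold marked no cell. Haemoglobin exceeded 5% of the UMIs in 2 cells.

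The receptor and surface genes set these cells apart from the rest of the tissue, as the rule required for some of them. Pdgfra (chr5:75152292-75198215, plus strand) was detected in 76% of the cells, against 0.818% of 20550 mature oligodendrocytes and 0.322% of 72030 microglia, at median depths of 8700, 4506 and 6713 UMIs per cell. C1ql1 (chr11:102939264-102946688, minus strand), a secreted ligand of adhesion receptors, was found in 50% of the cells and 0.258% of mature oligodendrocytes. Neu4 (chr1:94020451-94028334, plus strand) was found in 63% and 0.151%, and Gpr17 in 59% and 0.623%. Olig1, a transcription factor of the whole lineage, was found in 88% of the cells, in 48.7% of mature oligodendrocytes and in 16.9% of microglia. A UMI of Olig1 alone thus did not mark the lineage in these data.

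Pdgfra, the gene that defines the undifferentiated precursor, had 391, 435 and 416 CPM (the gene's UMIs as a share of all UMIs summed over the chosen cells of a library, scaled alike in every library) in the sham + WT libraries. It had 230, 526 and 578 CPM in sham + Lrg1-/-, 766 and 870 in MCAO/R + WT and 700, 273 and 373 in MCAO/R + Lrg1-/-. Both MCAO/R + WT libraries lay above every sham library, while 1 of the 3 MCAO/R + Lrg1-/- libraries lay above them and 2 within their range. Gpr17, which marks the committed stage, had 613, 326 and 638 CPM in sham + WT, 953, 1430 and 0 in sham + Lrg1-/-, 140 and 282 in MCAO/R + WT and 108, 334 and 102 in MCAO/R + Lrg1-/-. Apart from the sham + Lrg1-/- library at 0, which held 2 cells, Gpr17 was higher in every sham library than in 4 of the 5 MCAO/R libraries, and the MCAO/R + Lrg1-/- library with 334 CPM lay above the lowest sham + WT library. Neu4 ranged from 190 to 311 CPM in sham + WT and from 33.9 to 260 CPM in the MCAO/R libraries, and C1ql1 from 63.4 to 302 and from 33.9 to 192 CPM, so that the ranges overlapped.

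Among surface genes outside the rule, Lhfpl3 averaged 5280 ± 2930 CPM (SD, n = 11 libraries) in the chosen cells, against 13.9 CPM over all mature oligodendrocytes and 3.73 CPM over all microglia. Tnr, the extracellular matrix protein tenascin-R, averaged 2980 ± 847 CPM against 12.7 and 4.44 CPM. Kcnd2, a voltage-gated potassium channel, averaged 2820 ± 1870 CPM against 11.7 and 10.5 CPM, and the glutamate receptor gene Grm5 656 ± 286 CPM against 1.26 CPM in either type. The AMPA receptor subunit Gria2 averaged 859 ± 431 CPM and was detected in 87 of the 100 cells. Proteoglycan and matrix genes were also high, with Xylt1, an enzyme that starts proteoglycan chains, at 1680 ± 1000 CPM and the membrane protease Mmp16 at 847 ± 462 CPM, against 32.1 and 11.0 CPM in mature oligodendrocytes. Since the cells were chosen on lineage genes, these contrasts describe them and were not tested.

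Cells with and without Pdgfra differed in their stage genes. Pdgfra was detected in 76 cells and absent from 24, at median depths of 8947 and 7575 UMIs. Where it was absent, precursor genes were lower and premyelinating genes higher in the pooled UMIs. Cspg4, the NG2 proteoglycan, was at 351 CPM with Pdgfra and 47.1 CPM without, the phosphatase gene Ptprz1 at 2160 and 656 CPM, Grm5 at 754 and 101 CPM, and Ccnd1, the cyclin of the G1 phase, at 390 and 13.5 CPM. In the opposite direction, Bmp4 was at 19.2 and 256 CPM, Enpp6 at 37.2 and 1320 CPM, Bcas1 at 497 and 2740 CPM and the kinase gene Fyn at 404 and 3020 CPM. Lack of a Pdgfra UMI is not a stage by itself. All 5 committed markers (Bmp4, Enpp6, Bcas1, Fyn and Tcf7l2) were detected in 12 of the 24 cells without Pdgfra and in 1 of the 76 with it, whereas at least 3 of the 5 were detected in 17 of 24 and 40 of 76 cells.

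Cells without Pdgfra stood above mature oligodendrocytes for Enpp6 (1320 against 65.8 CPM), Bcas1 (2740 against 339 CPM) and Fyn (3020 against 112 CPM), genes of the transient premyelinating stage. The myelin gene Mbp was at 3110 CPM, but 442 of its 925 UMIs were in 1 cell of sham + WT replicate 2, so it was not ranked against the mature level of 1820 CPM. Several lineage genes barely differed between the 2 sets, with Sox6 at 1430 and 1400 CPM, the neuregulin receptor Erbb4 at 2140 and 2120 CPM and Olig2 at 279 and 282 CPM. The split used a rule gene and few cells, so it is a description.

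**Figure D1:**
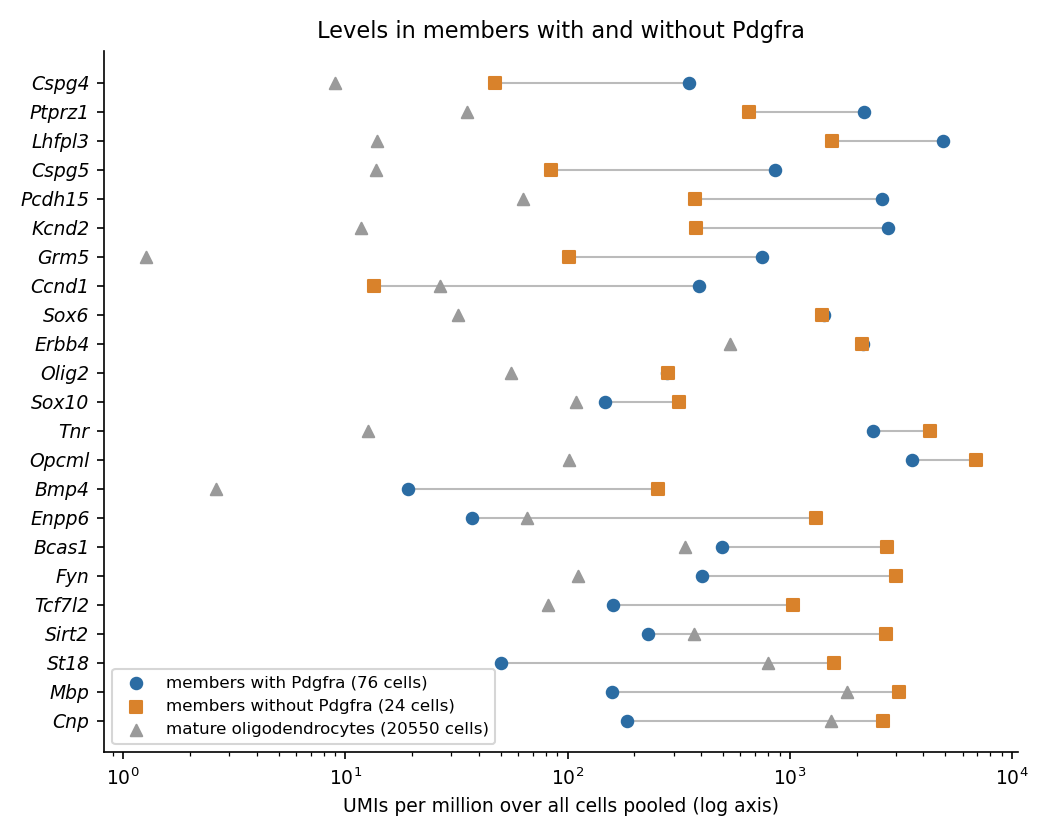
Pooled level of 23 genes (CPM, log axis) in the 76 chosen cells with Pdgfra, the 24 without it and 20550 mature oligodendrocytes, 1 gene a line. The precursor genes at the top lie to the right in cells with Pdgfra, Sox6, Erbb4 and Olig2 coincide, and the premyelinating and myelin genes at the bottom lie to the right in cells without Pdgfra.

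Cells without Pdgfra were spread unevenly over the groups. They made up 8 of 17 in sham + WT, 3 of 14 in sham + Lrg1-/-, 4 of 31 in MCAO/R + WT and 9 of 38 in MCAO/R + Lrg1-/-. In single libraries Enpp6 stood at 1720 CPM in sham + WT replicate 2 and at 832 CPM in MCAO/R + Lrg1-/- replicate 2, and between 0 and 444 CPM in the other 9. With 2 to 22 cells a library, such levels rest on few cells. Dividing cells were rare: at least 3 of the 6 division genes Mki67, Top2a, Cdk1, Ccnb1, Birc5 and Cenpf were detected in 3 cells, all of them WT. Of these, 1 cell of MCAO/R + WT replicate 2 had only 2 of the 8 other precursor markers but 4 neuroblast and neuron markers, so it is not clearly a precursor.

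The share of the chosen cells among passing cells was compared over libraries. It was 0.0507% (7 cells), 0.0507% (5) and 0.0529% (5) in sham + WT, and 0.0739% (7), 0.0882% (5) and 0.0616% (2) in sham + Lrg1-/-. After MCAO/R it was 0.0905% (9) and 0.177% (22) in WT and 0.109% (7), 0.1% (18) and 0.038% (13) in Lrg1-/-. MCAO/R + WT replicate 2 thus lay above every sham library, whereas the MCAO/R + Lrg1-/- libraries lay on both sides of the sham values. MCAO/R + WT replicate 1 lay just above the highest sham library here but not among cells under 5% haemoglobin (0.0906% against 0.101%), under 10% mitochondrial UMIs (0.082% against 0.0948%) or with the rule applied to cells thinned to 1000 UMIs (0.0402% against 0.0423%). Group means were 0.0514% ± 0.00127 (SD, n = 3), 0.0746% ± 0.0133 (n = 3), 0.134% ± 0.0612 (n = 2) and 0.0823% ± 0.0387 (n = 3).

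Averaged over genotypes, the share was 0.045 percentage points higher after MCAO/R, a difference that did not pass a two-sided exact permutation test within genotypes (p = 0.07, adjusted p = 0.14 over 4 share tests, smallest possible p = 0.005). The difference was 0.0823 points in WT and 0.00777 points in Lrg1-/- mice. Without MCAO/R + Lrg1-/- replicate 5, in which 34181 cells passed, it was 0.0561 points (exact permutation p = 0.01), and without MCAO/R + WT replicate 2 it was 0.0234 points. The genotypes differed by -0.0141 points, Lrg1-/- minus WT (exact permutation p = 0.625, adjusted p = 0.625). The WT cells were deeper, and the rule counts detected genes. On cells thinned to 1000 UMIs the difference was -0.0376 points (exact permutation p = 0.015, unadjusted), with the sham difference turned from 0.0231 to -0.0233. The rule then left 3, 0 and 0 cells in the sham + Lrg1-/- libraries and 4, 3 and 4 in sham + WT. This was 1 of several settings tried, and the part of depth was not tested. Other denominators turned the sign of the genotype difference, to 0.00275 points among cells under 5% haemoglobin and 0.628 points relative to the lineage. As a share of the chosen cells and mature oligodendrocytes together, the MCAO/R difference had the opposite sign (-0.544 points, exact permutation p = 0.39). A change in the tissue and a change in which cells survived dissociation cannot be told apart.

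**Figure D2:**
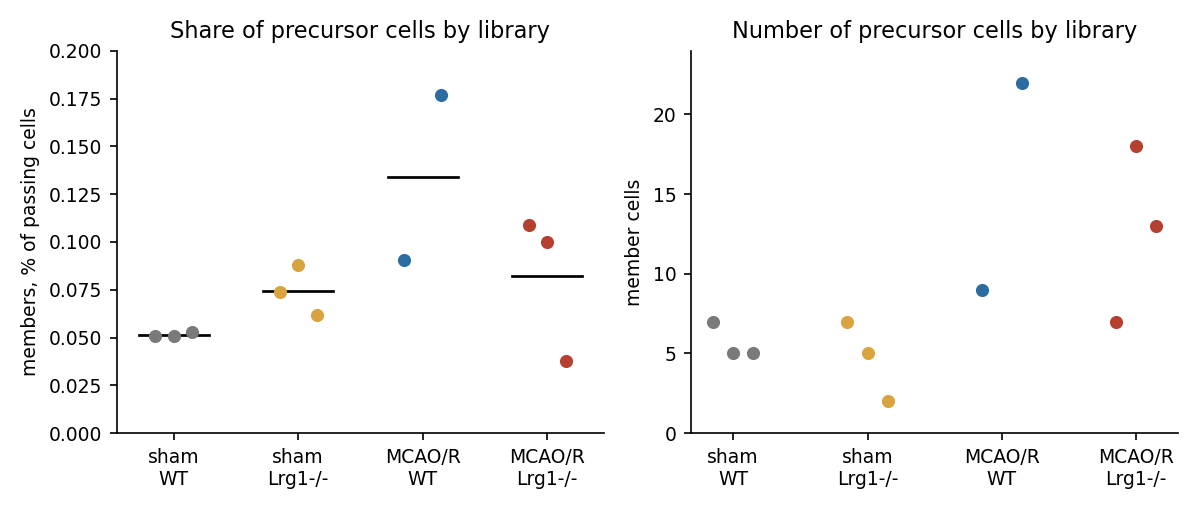
Share of passing cells that were chosen (left, percent) and their number (right), 1 point a library, with horizontal bars for group means on the left. The MCAO/R + WT replicate 2 library, at 0.177%, stands well above the 6 sham libraries, the other, at 0.0905%, lies next to the highest of them at 0.0882%, and the MCAO/R + Lrg1-/- libraries span 0.038% to 0.109%.

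Expression was compared between groups on UMIs summed over the chosen cells of each mouse, with edgeR's quasi-likelihood test. Genes were called at a Benjamini-Hochberg adjusted p under 0.05 over all genes tested and a natural-log fold change over 0.25. Only 3 libraries held 10 or more chosen cells, which allowed just the genotype contrast after MCAO/R. The other contrasts were fitted on the 10 libraries with at least 5 cells, leaving out sham + Lrg1-/- replicate 5. In these libraries 36063 to 273504 UMIs were summed, so that 1 UMI was worth 3.66 to 27.7 CPM.

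After MCAO/R in WT mice, 4 of 3523 genes tested rose and none fell (0.114% called). They were the protease gene Htra1, the secreted chemokine-like factor Tafa1, the potassium channel partner Kcnip1 and the GABA-A receptor subunit Gabrb1. The groups differed in their cells, with 8 of 17 lacking Pdgfra in sham + WT and 4 of 31 in MCAO/R + WT, and no fit within cells with Pdgfra could be made, since no sham + WT library held 5 of them. On cells thinned to 1000 UMIs, where 104 genes were tested, 0 genes were called higher and 2 lower. In the mean over both genotypes, 3 genes were called (0.0852%). Htra1 and Tafa1 rose (0.0568% of genes called higher) and Tmem117, which encodes a membrane protein, fell (0.0284% called lower).

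Htra1 (chr7:130936111-130985660, plus strand), a secreted serine protease, had 8.88, 0 and 55.5 CPM in sham + WT and 302 and 453 CPM in MCAO/R + WT. It had 0, 21.9 and 82.6 CPM in sham + Lrg1-/- and 108, 130 and 215 CPM in MCAO/R + Lrg1-/-, so that all 5 MCAO/R libraries lay above all 6 sham libraries. No share of all tested genes without overlap is given, so the lack of overlap of Htra1, Tafa1 and Tmem117 adds no support. Htra1, low in every sham library, could pass the filter on low counts through the MCAO/R libraries in which it was high. Its UMIs were found in 8 of 9 and 18 of 22 cells of the MCAO/R + WT libraries and in 3 of the 17 sham + WT cells. Over all libraries it was detected in 55% of the chosen cells, 53.9% of mature oligodendrocytes, 68.2% of astrocytes and 24% of microglia, at median depths of 8700, 4506, 8401 and 6713 UMIs, so it is no gene of precursors alone. The log2 difference was 4.71 ± 0.84 (SE, adjusted p = 0.0286) in WT and 4.3 ± 0.7 (adjusted p = 0.0146) over both genotypes. With 3 UMIs in sham + WT, the ratio of summed levels was 34.8 (95% counting interval 11.7 to 171).

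Htra1 is itself on the list of astrocyte genes. The summed level of the 13 listed astrocyte genes was 679 to 1580 CPM in sham + WT and 4010 and 2490 CPM in MCAO/R + WT, with 992 to 1580 CPM in sham + Lrg1-/- and 1050 to 1720 CPM in MCAO/R + Lrg1-/-. Mt3, a metallothionein of astrocytes, made up 2670 CPM of the 4010 CPM. Without Mt3 and Htra1 the sum was 1030 and 1820 CPM in MCAO/R + WT and 634 to 1480 CPM over the 6 sham libraries. The part of astrocyte RNA in the rise was not tested. Htra1 also rose in mature oligodendrocytes, by 2.63 on the log2 scale (adjusted p = 6.01e-05).

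Tafa1 (chr6:96113154-96657198, plus strand) had 26.6, 45.3 and 139 CPM in sham + WT and 685 and 1290 CPM in MCAO/R + WT, a log2 difference of 3.97 ± 0.71 (adjusted p = 0.0286). The sham + Lrg1-/- libraries stood higher than the WT ones, at 279, 307 and 578 CPM, and the MCAO/R + Lrg1-/- libraries at 1130, 1330 and 1210 CPM. Every MCAO/R library lay above every sham library, and the mean difference was 3.03 ± 0.5 (adjusted p = 0.0146). Tafa1 was detected in 63% of the chosen cells against 0.657% of mature oligodendrocytes and 0.605% of microglia, and in 7.53% of astrocytes. In WT mature oligodendrocytes its log2 difference was 2.79 (adjusted p = 0.077).

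Kcnip1 (chr11:33629339-33993152, minus strand), which modulates A-type potassium channels such as the one Kcnd2 encodes, had 53.3, 36.2 and 0 CPM in sham + WT and 479 and 537 CPM in MCAO/R + WT. It was at 164, 285 and 413 CPM in sham + Lrg1-/- and at 377, 157 and 294 CPM in MCAO/R + Lrg1-/-, where the groups overlapped. The difference in WT was 3.69 ± 0.67 (log2, adjusted p = 0.0286). Detection was 61% in the chosen cells and 1.94% in mature oligodendrocytes, where Kcnip1 rose by 4.72 on the log2 scale in WT mice (adjusted p = 0.000402).

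Gabrb1 (chr5:71658113-72149037, plus strand) had 8.88, 0 and 27.7 CPM in sham + WT and 184 and 424 CPM in MCAO/R + WT, a log2 difference of 4.98 ± 0.8 (adjusted p = 0.0286) on 2 sham UMIs (ratio 44.6, counting interval 12.1 to 372). Only the sham + WT group was low, since sham + Lrg1-/- stood at 247, 263 and 165 CPM and MCAO/R + Lrg1-/- at 198, 218 and 294 CPM. Gabrb1 was accordingly also called higher in sham + Lrg1-/- than in sham + WT (4.87 on the log2 scale). Its genotype-by-surgery interaction was -5.04 (adjusted p = 0.395, edgeR). Astrocytes carried it in 61.2% of cells and microglia in 6.23%, against 45% of the chosen cells.

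Tmem117 (chr15:94629232-95096098, plus strand) moved the other way, with 178, 145 and 83.2 CPM in sham + WT and 263 and 110 CPM in the 2 sham + Lrg1-/- libraries of the fit. The third sham + Lrg1-/- library, with 2 cells and outside the fit, had 0 CPM. The MCAO/R libraries had 22.1 and 25.6 CPM in WT and 0, 13.6 and 22.6 CPM in Lrg1-/-. No MCAO/R library reached the lowest of these sham libraries, and the mean difference was -3.12 ± 0.52 (log2, adjusted p = 0.0146). Low in every MCAO/R library, Tmem117 could pass the filter on low counts through the sham libraries in which it was high, so the lack of overlap adds no support. The 5 MCAO/R libraries held 14 Tmem117 UMIs in all. In mature oligodendrocytes Tmem117 stayed between 65.4 and 157 CPM in every library.

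These calls rested on few mice. In WT the 4 calls fell to 0 without sham + WT replicate 1, sham + WT replicate 2 or sham + Lrg1-/- replicate 1, and the log2 difference then ranged from 4.02 to 4.75 for Htra1 and from 3.48 to 4.01 for Tafa1. Of the 3 calls in the mean, none was left without sham + Lrg1-/- replicate 1 or sham + WT replicate 1, where the Tmem117 difference was -2.7 and -3.02. Tmem117 also lost its call without sham + WT replicate 2 or either MCAO/R + WT library, and Tafa1 without sham + Lrg1-/- replicate 2 or MCAO/R + WT replicate 2. Cells with at least 3 of the 8 other precursor markers and under 5% haemoglobin gave 6.11 for Htra1 and 4.78 for Tafa1 in WT and -3.97 for Tmem117 in the mean, all called.

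**Figure D3:**
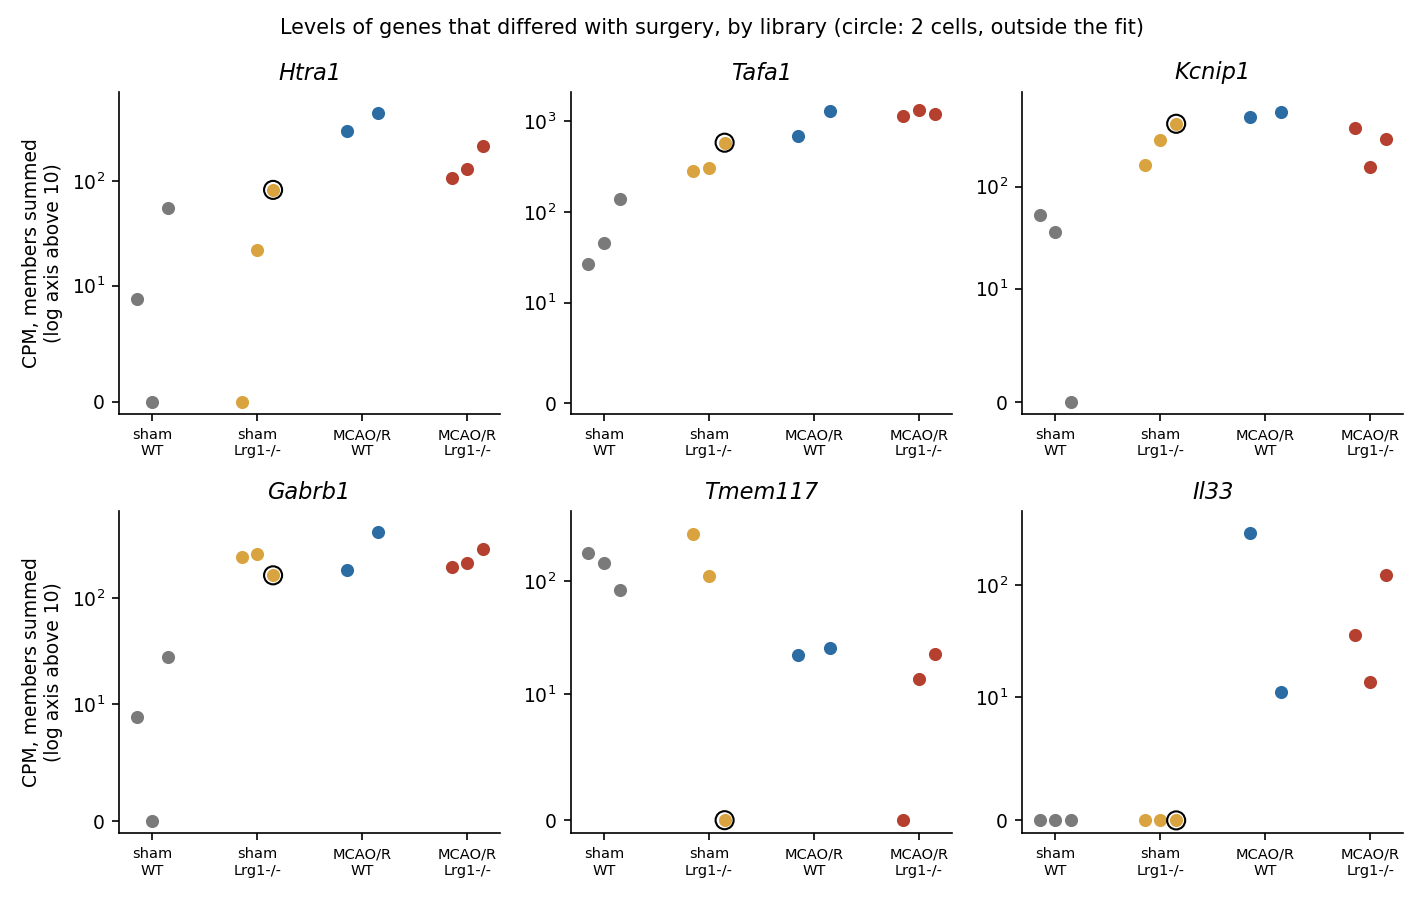
Level of 6 genes in the chosen cells (CPM, linear below 10 and log above), 1 point a library in each of the 4 groups, with a circle around sham + Lrg1-/- replicate 5, which held 2 cells and was outside the fit. Htra1 and Tafa1 are higher and Tmem117 lower in all 5 MCAO/R libraries than in the 5 sham libraries of the fit, Gabrb1 is low in sham + WT only, and Il33 has no UMI in sham.

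In Lrg1-/- mice, 0 of 3523 genes were called between MCAO/R and sham (0.0%), with 143 genes at an unadjusted p under 0.05 in edgeR and 0 called by DESeq2. The interaction of genotype and surgery also gave 0 calls, with 168 genes at an unadjusted p under 0.05 and 0 called by DESeq2. The WT and Lrg1-/- responses were thus not shown to differ.

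No premyelinating gene was called after MCAO/R. In WT mice 21 of 28 listed committed and premyelinating genes were tested, 0 passed in either direction, and all 21 estimates were negative with a median of -1.99 on the log2 scale, against -0.04 over all 3523 genes tested. Bcas1 had 1860, 1950 and 915 CPM in sham + WT and 560 and 841 CPM in MCAO/R + WT (-1.26, adjusted p = 0.948). Fyn had 2180, 2060 and 499 CPM against 405 and 1020 CPM (-1.25, adjusted p = 0.973). In Lrg1-/- mice the median was 0.95 with 14 of 21 estimates positive, and in the interaction it was 3.17 with 21 of 21 positive, again with 0 called. The list summed to 19500 CPM in MCAO/R + Lrg1-/- replicate 2 but to 3230 and 3820 CPM in replicates 1 and 5, below the 6610 and 11300 CPM of the fitted sham + Lrg1-/- libraries, and to 28500 CPM in sham + WT replicate 2 against 13900 and 5550 CPM in replicates 1 and 3. Genes of a list were read in the same few cells, and a low gene can pass the filter through the libraries in which it is high, so these estimates are not independent of each other or of the filter.

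Inflammatory genes were likewise not called by surgery. In the mean over genotypes 18 of 36 listed inflammatory and acute phase genes were tested and 0 passed. No median is given, since low genes such as Serpina3n passed the filter on low counts through the MCAO/R libraries in which they were high. Nfkbia, the inhibitor of NF-kappa B that its own target pathway induces, was at 97.7, 72.4 and 194 CPM in sham + WT, 98.6, 43.9 and 0 CPM in sham + Lrg1-/-, 413 and 165 CPM in MCAO/R + WT and 53.9, 341 and 847 CPM in MCAO/R + Lrg1-/- (mean difference 1.92, adjusted p = 0.637). The inflammatory list summed to 942 to 1470 CPM in sham + WT and to 4820 and 2520 CPM in MCAO/R + WT. It summed to 3040, 789 and 1650 CPM in sham + Lrg1-/- and to 1810, 5090 and 8070 CPM in MCAO/R + Lrg1-/-. The 3040 CPM of sham + Lrg1-/- replicate 1 thus exceeded the 2520 CPM of MCAO/R + WT replicate 2. The metallothioneins Mt1 and Mt2 differed by 4.59 and 4.88 in WT (adjusted p = 0.105 and 0.0777), and MCAO/R + WT replicate 1 held 9080 CPM of Mt1 against 676 CPM in replicate 2. The precursor surface genes had 26 of 28 tested, 0 called and a median of -0.28 in the mean, and the 12 of 24 cholesterol genes tested had a median of -0.02 with 0 called.

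Between genotypes after MCAO/R, 3 of 3523 genes were called on the 10 libraries with at least 5 cells (0.0852%), all higher in Lrg1-/-. They were the haemoglobin genes Hbb-bs and Hba-a2 and the choroid plexus gene Ttr. Without MCAO/R + WT replicate 1 the fit called 0 genes, and without replicate 2 it called 4, all lower. Hbb-bs, a beta globin of red blood cells, had 7.37 and 0 CPM in MCAO/R + WT and 916, 25400 and 11600 CPM in MCAO/R + Lrg1-/- (11.87 ± 1.68, adjusted p = 0.0123 with at least 5 cells). In MCAO/R + Lrg1-/- replicate 2, 3262 of its 3724 UMIs lay in 1 cell, and in replicate 5 the share was 867 of 1026. Hba-a2 had 0 UMIs in MCAO/R + WT. Against the limit that 3 UMIs set there, it was at least 756-fold higher in MCAO/R + Lrg1-/-. Its fitted log2 difference of 11.93 (adjusted p = 0.0193, edgeR) depends on the prior count. Haemoglobin differed in the same direction over all barcodes of these libraries, and its part in other differences was not tested.

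Ttr, the thyroid hormone carrier transthyretin, which the choroid plexus makes in large amounts, had 273 and 91.4 CPM in MCAO/R + WT and 2640, 8170 and 4310 CPM in MCAO/R + Lrg1-/-, a log2 difference of 5.0 ± 0.84 (adjusted p = 0.0193). In sham it had 169, 326 and 333 CPM in WT and 12900, 30000 and 2640 CPM in Lrg1-/- (6.36 ± 0.77, adjusted p = 0.000704). The genotypes did not overlap under either surgery. In sham + Lrg1-/- replicate 2, 1273 of 1369 Ttr UMIs were in 1 cell. At least 1 Ttr UMI was found in every chosen cell of the 6 Lrg1-/- libraries and in 40 of the 48 WT cells, so the genotypes differed mainly in amount. Mature oligodendrocytes of the same mice showed differences of 5.14 after MCAO/R and 3.75 in sham. The 10 choroid plexus genes together were at 597 to 832 CPM in WT and 3060 to 32000 CPM in Lrg1-/- libraries.

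The fit planned on 10 or more cells had 3 libraries, MCAO/R + WT replicate 2 with 22 cells and MCAO/R + Lrg1-/- replicates 2 and 5 with 18 and 13. It gave 57 genes higher and 7 lower in Lrg1-/- of 4370 tested (1.46% called, with 1.3% higher and 0.16% lower). With 1 WT library and 1 residual degree of freedom, genotype and that single mouse cannot be told apart in it, so its calls are given as values of these 3 libraries, with no p-value. Of the 64 genes, 33 were also tested with at least 5 cells, and 3 of them were called. Over the 5 MCAO/R libraries 27 of the 64 genes did not overlap between genotypes, against 976 of all 4370 genes tested.

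Of 28 inflammatory and acute phase genes tested in the 3 libraries, 8 were among the 57, against 1.3% of all genes. Low genes such as Emp3 passed the filter on low counts through the Lrg1-/- libraries. With at least 5 cells 6 of the 8 were tested and 0 called, while Lgals1 and Emp3 were not tested. Serpina3n, an acute phase protease inhibitor that reactive glia induce, was at 403 and 429 CPM in MCAO/R + Lrg1-/- replicates 2 and 5 and at 25.6 CPM in MCAO/R + WT replicate 2. In the MCAO/R libraries outside the fit it was at 18.0 CPM in Lrg1-/- and 81.0 CPM in WT, so that the genotypes overlapped. With at least 5 cells its difference was 2.74 (adjusted p = 0.998, edgeR), and in mature oligodendrocytes it was 0.27. Lgals1, Lgals3, Emp3, S100a11 and Cd14 were instead also called higher in mature oligodendrocytes of MCAO/R + Lrg1-/- mice, by 1.94 to 4.62 (log2). Of the 57 genes, 45 had a higher CPM in microglia than in the chosen cells, all libraries pooled. The part of RNA from other cells in these values was not tested.

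Some of these values were carried by 1 library or 1 cell. Spp1, the matrix cytokine osteopontin, had 464 of its 493 UMIs in MCAO/R + Lrg1-/- replicate 5 in 1 cell, while in replicate 2 its 149 UMIs were spread over 17 of 18 cells. S100a9 and Il1b, genes of neutrophils and activated myeloid cells, were at 0 in MCAO/R + WT replicate 2. Against the limit that 3 UMIs set there, S100a9 was at least 48.1-fold higher over the 2 Lrg1-/- libraries and at least 9.95-fold higher without replicate 5, where 95 of its 108 UMIs were in 1 cell. Il1b was at least 36.5-fold higher over both and at least 3.73-fold higher without replicate 5, which held 88 of its 94 UMIs. In the MCAO/R libraries outside the fit Il1b was at 0 CPM in Lrg1-/- and 7.37 CPM in WT, so that the genotypes overlapped. Microglial genes summed to 1760 to 2960 CPM in the WT libraries. They summed to 3550, 4500 and 2890 CPM in sham + Lrg1-/- and to 2800, 4840 and 9250 CPM in MCAO/R + Lrg1-/-. Their part in these values was not tested.

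Committed and premyelinating genes of the 3 libraries are given as levels only. Low genes such as Sema4d, with 2 UMIs in MCAO/R + WT replicate 2, could pass the filter on low counts through the Lrg1-/- libraries. The libraries differed in their cells, with 7 of 18 lacking Pdgfra in MCAO/R + Lrg1-/- replicate 2 and 2 of 22 in MCAO/R + WT replicate 2. The part of this in the levels was not tested. Sema4d, a semaphorin of oligodendrocytes, was at 232 and 136 CPM against 7.31 CPM in the fit, but at 18.0 CPM in the Lrg1-/- and 58.9 CPM in the WT library outside it, and with at least 5 cells it differed by 2.42 (adjusted p = 0.998, edgeR). Cldn11, the claudin of myelin's tight junctions, was at 180, 553 and 124 CPM in MCAO/R + Lrg1-/- and 29.5 and 36.6 CPM in MCAO/R + WT, without overlap over the 5 libraries, and with at least 5 cells it differed by 3.28 (adjusted p = 0.998, edgeR).

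Of the 7 genes lower in Lrg1-/-, several came from single cells of MCAO/R + WT replicate 2. Ccnd2, a G1 cyclin, had 107 of its 108 UMIs there in 1 cell, the neural factor Sox11 50 of 56, and the cystine transporter Slc7a11 90 of 91. Pou3f1, a transcription factor of glial precursors also known as Oct6, was instead spread over 13 of 22 cells of that library. It had 199 and 186 CPM in MCAO/R + WT and 53.9, 13.6 and 11.3 CPM in MCAO/R + Lrg1-/-, with no overlap over the 5 libraries. With at least 5 cells the difference was -2.89 (adjusted p = 0.998, edgeR).

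**Figure D4:**
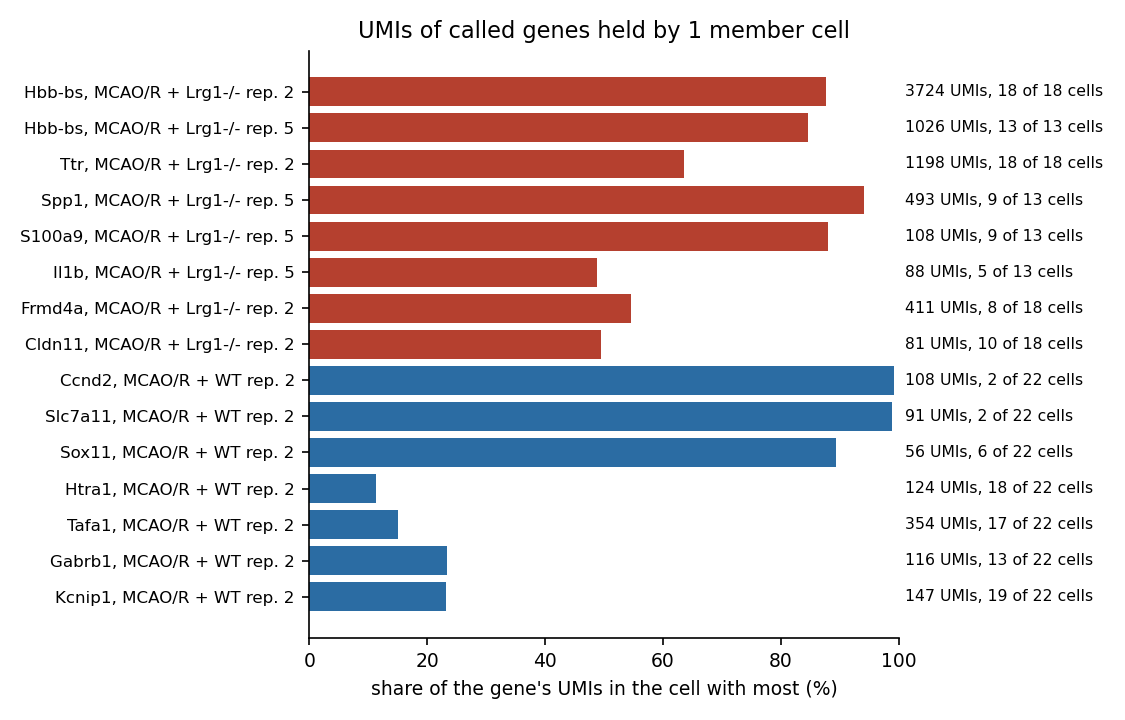
Share of a gene's UMIs in the chosen cell that held most of them (percent), for called genes in the library named beside the bar, red for MCAO/R + Lrg1-/- and blue for MCAO/R + WT, with the UMIs and the number of cells at the right. Ccnd2, Slc7a11, Spp1 in replicate 5 and Hbb-bs were mostly in 1 cell, whereas Htra1, Tafa1, Kcnip1 and Gabrb1 were spread over 13 to 19 of 22 cells.

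In sham mice, 2 of 3523 genes were called between genotypes (0.0568%), Ttr and Gabrb1, both higher in Lrg1-/-. Of the 12 cholesterol synthesis and uptake genes tested, 0 were called. The list summed to 3440, 4100 and 1610 CPM in sham + WT and 756, 417 and 661 CPM in sham + Lrg1-/-. Low genes could pass the filter on low counts through the sham + WT libraries in which they were high, so no median or shared sign is read. Cells without Pdgfra were 8 of 17 in sham + WT and 3 of 14 in sham + Lrg1-/-, and the part of this was not tested. Hmgcs1, the enzyme that commits acetyl units to the sterol pathway, had 604, 724 and 250 CPM in sham + WT and 49.3, 0 and 82.6 CPM in sham + Lrg1-/-, without overlap (-4.19, adjusted p = 0.081). Ccnd1 (chr7:144929931-144939925, minus strand) had 577, 380 and 388 CPM against 16.4, 0 and 0 CPM (-5.36 ± 1.02, adjusted p = 0.0706). Neither gene passed the test.

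The response of the chosen cells was then set against that of mature oligodendrocytes of the same mice, with the library as a block. Mature oligodendrocytes, with far more cells, showed 2009 of 17397 genes called after MCAO/R in WT (11.5%) and 2678 in Lrg1-/- (15.4%), 3769 in the mean of both (21.7%) and 120 in the interaction (0.69%). Between genotypes 1990 genes were called in sham (11.4%) and 5370 after MCAO/R (30.9%). The test of the difference of effects called 21 of 12230 genes for surgery (0.172%), with 13 effects higher (0.106%) and 8 lower (0.0654%) in the chosen cells, and 48 for genotype after MCAO/R (0.392%), with 23 higher (0.188%) and 25 lower (0.204%). Without MCAO/R + WT replicate 1 the genotype test called 0 higher and 4 lower, and without replicate 2 it called 1 higher and 13 lower. For surgery 2 higher and 0 lower were called both without MCAO/R + WT replicate 1 and on cells thinned to 1000 UMIs. The SE of these differences was not computed.

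For surgery, Tmem117 differed by -2.84 (adjusted p = 0.00887), with mature oligodendrocytes at 89.1 to 142 CPM in sham and 65.4 to 157 CPM after MCAO/R. Its call was lost on thinned cells and without either MCAO/R + WT library, sham + WT replicate 1 or sham + Lrg1-/- replicate 1. Il33, an alarmin cytokine that mature oligodendrocytes store in the nucleus, had 0 UMIs in the chosen cells of all 6 sham libraries and 58 UMIs after MCAO/R, at least 10.1-fold more than the limit of 3 UMIs allows. It was at 295 and 11.0 CPM in MCAO/R + WT and 35.9, 13.6 and 124 CPM in MCAO/R + Lrg1-/-, but 40 of the 58 UMIs came from MCAO/R + WT replicate 1, 32 of them in 1 cell, and without that library the bound was at least 3.89-fold. Mature oligodendrocytes had 171 to 394 CPM in sham and 54.1 to 463 CPM after MCAO/R (difference 12.19, adjusted p = 0.00119).

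The glutamate receptor genes Gria3 and Grik1 overlapped between surgeries in the chosen cells. Gria3 was at 165 to 636 CPM in the chosen cells, and in mature cells at 0 to 0.667 CPM in the 5 sham libraries of the fit and 1.83 to 3.93 CPM after MCAO/R, without overlap, with 3.21 CPM in the sham library outside the fit (-3.6, adjusted p = 0.00119). Grik1 was at 81.5 to 664 CPM in the chosen cells, while mature cells had 40.1 to 118 CPM in sham and 18.4 to 39.3 CPM after MCAO/R (2.17, adjusted p = 0.0108). Both calls were lost on thinned cells and without sham + Lrg1-/- replicate 1 or MCAO/R + WT replicate 1, and that of Grik1 also without 4 other libraries.

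For genotype after MCAO/R, Ccnd1 lay in opposite order in the 2 cell types. In the chosen cells it was at 744 and 249 CPM in MCAO/R + WT and 71.8, 34.1 and 90.4 CPM in MCAO/R + Lrg1-/-, and in mature oligodendrocytes at 20.5 and 11.1 against 61.3, 58.6 and 38.6 CPM. The groups did not overlap in either cell type, and the difference was -4.59 (adjusted p = 6.96e-07). Within the chosen cells alone the genotype difference was -2.76 ± 0.64 (adjusted p = 0.277). Its UMIs came from 7 of 9 and 13 of 22 cells in MCAO/R + WT and from 4 of 7, 5 of 18 and 2 of 13 cells in MCAO/R + Lrg1-/-, and microglia carried Ccnd1 in 30.2% of cells. The difference was called under each leaving-out of 1 library, from -5.33 to -4.3.

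Grm7, a metabotropic glutamate receptor, had 118 and 143 CPM in the chosen cells of MCAO/R + WT and 557, 955 and 441 CPM in MCAO/R + Lrg1-/-. Mature cells had 258 and 285 against 89.1, 179 and 76.7 CPM, again without overlap and in the opposite order (3.57, adjusted p = 0.00316). In MCAO/R + Lrg1-/- replicate 2, 122 of the 140 UMIs were in 1 cell. Leaving out either MCAO/R + WT library raised the adjusted p to 0.479 and 0.322.

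Cldn11 was higher in the chosen cells of MCAO/R + Lrg1-/- mice, whereas their mature oligodendrocytes were lower, at 949, 948 and 751 CPM against 1440 and 1380 CPM in WT (difference 3.54, adjusted p = 0.0377). This call was lost on thinned cells and without 9 of the 10 libraries in turn, with adjusted p up to 1.0, and 40 of the 81 Cldn11 UMIs of MCAO/R + Lrg1-/- replicate 2 were in 1 cell. Mt3 differed by -5.34 (adjusted p = 4.52e-07), with 2670 and 219 CPM against 198, 27.3 and 90.4 CPM in the chosen cells and 106 and 45.9 against 544, 182 and 248 CPM in mature cells. Of the 363 Mt3 UMIs of MCAO/R + WT replicate 1, 275 were in 1 cell, and without that library the difference was -4.28 (adjusted p = 0.0658). Pou3f1 also differed, by -3.35.

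**Figure D5:**
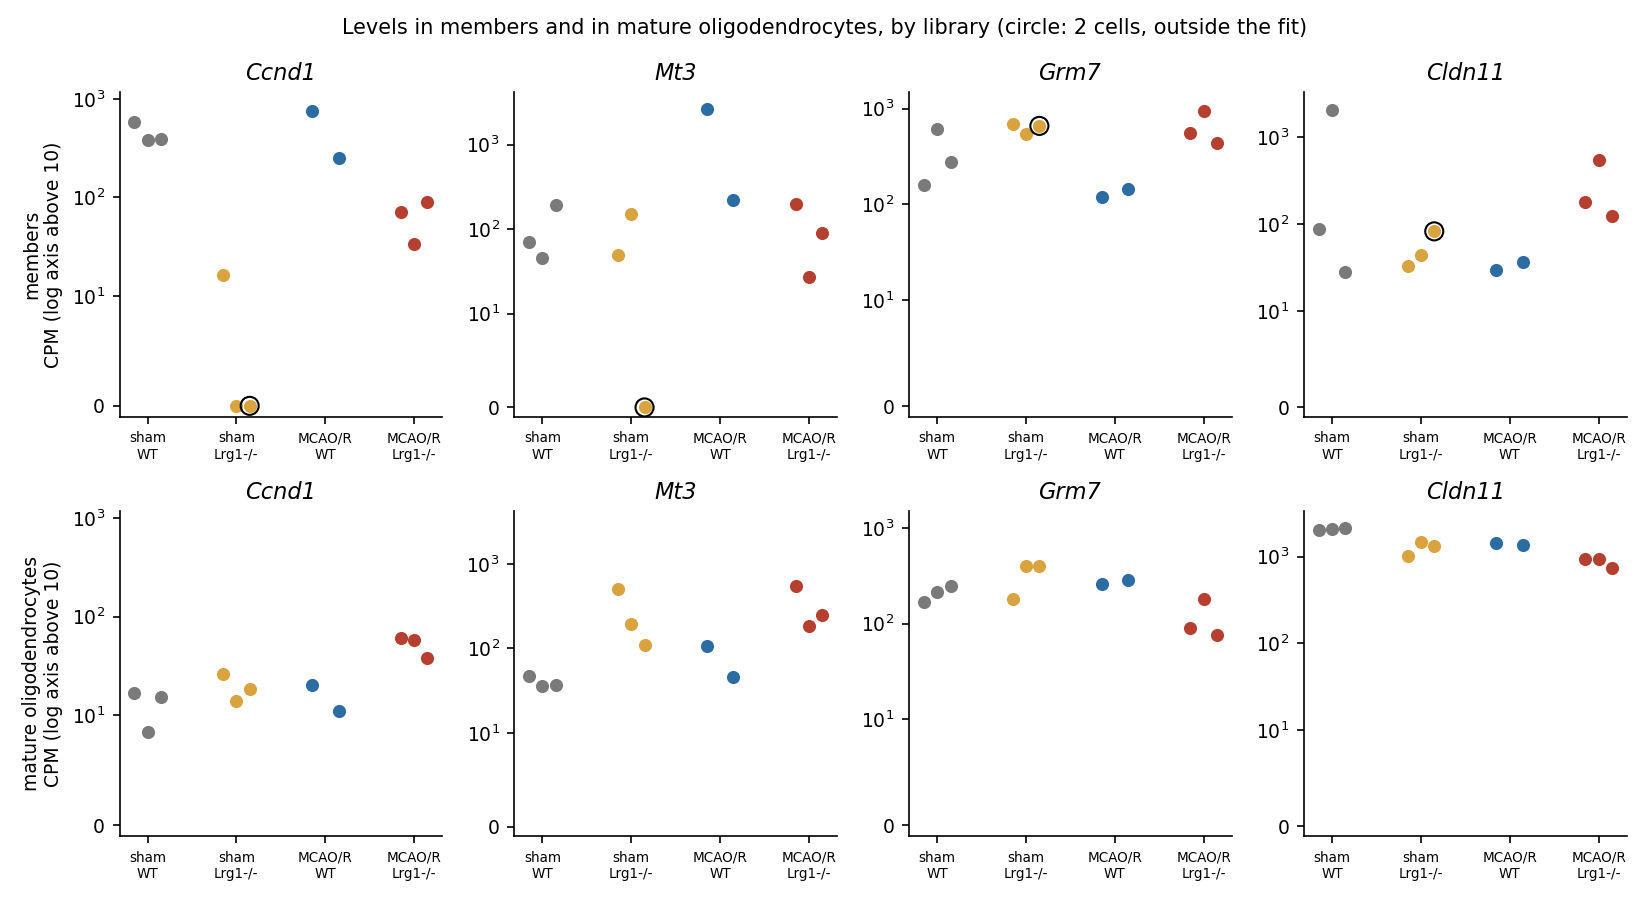
Level of Ccnd1, Mt3, Grm7 and Cldn11 (CPM, linear below 10 and log above) in the chosen cells (top) and in mature oligodendrocytes (bottom) of the same libraries, 1 point a library, with a circle around the library with 2 cells that was outside the fit. After MCAO/R the genotypes lie in opposite order in the upper and lower panels of each gene.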

How the data were processed

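The deposited files were raw UMI counts per gene and cell from Chromium 3′ libraries of right brain hemispheres, with red blood cells lysed. The authors aligned reads to mm10 with Cell Ranger (5.0.0 in the methods, 7.0.1 in the matrix header) and STAR, per the labels, and deposited 155804 barcodes. Matrices were read with Python 3.11.15, numpy 2.4.6, scipy 1.17.1 and pandas 2.3.3, and doublets were scored with Scrublet (scanpy 1.11.5, expected rate 0.06) and kept. Where its automatic threshold marked 0.0% of cells, the highest scores were marked instead, at the expected rate. The members and gene lists were chosen with earlier results of these data known.

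Counts of chosen cells were summed per mouse and tested with edgeR 4.0.16 (R 4.3.3, limma 3.58.1) after TMM scaling and filterByExpr, with robust quasi-likelihood fits. DESeq2 1.42.0 was an alternative. Designs held the 4 groups without a block. The difference from mature oligodendrocytes was tested with library as a block. Called genes had an adjusted p under 0.05 and a natural-log fold change over 0.25. The fit was planned on libraries with at least 10 cells. Since only 3 reached it, libraries with at least 5 were used for the other contrasts. Some edgeR fits were tried on simulated counts with a fixed spread. These were genotype after MCAO/R, genotype in sham, the mean MCAO/R effect and the genotype difference from mature cells. MCAO/R within a genotype, the interaction, the surgery difference, DESeq2 and the alternatives were not simulated. Named genes were, for each contrast, the called genes on a list (at most 6 a list, by size of the fold change) and the 6 called genes in each direction on no list with the largest fold change, no overlap between groups and at least 30 UMIs. Levels were given for the list genes with the highest mean. Mt1, Mt2, Nfkbia, Hmgcs1, Ccnd1 in sham and the difference of Pou3f1 lie outside this rule and were chosen after their values were seen.

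Shares were compared by exact permutation of libraries within strata, two-sided. The floor for a gene at 0 was 3 UMIs over the group. Counting intervals are 95% exact intervals and cover counting error only. Positions are from GENCODE M21 on GRCm38 (mm10), matched by gene ID. Alternatives comprised thinning each cell to 1000 UMIs, stricter marker and mitochondrial rules, other denominators, no filter on low counts, a replicate block and leaving out each library. The tests on Gpr17 and Neu4 were not read, since both genes belong to the rule.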

Additional observations from a re-analysis of the deposited data

Results flagged for a closer look

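Effects that differed between the chosen cells and mature oligodendrocytes of the same mice, by the test of the difference itself (edgeR, library as block, at least 5 cells), were taken for a closer look. For MCAO/R over both genotypes there were 21 such genes. Differences on the log2 scale were -3.6 for Gria3, 2.17 for Grik1, 12.19 for Il33 and -2.84 for Tmem117. The Il33 value rests on 0 sham UMIs and depends on the prior count.

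Between genotypes after MCAO/R there were 48 such genes. Among those higher in the chosen cells relative to mature ones, the differences were 4.7 for Pakap, 4.27 for 9630013A20Rik, 3.57 for Grm7, 3.54 for Cldn11, 3.04 for Sez6l, 2.87 for Tmem163, 2.84 for Zfp365 and 2.75 for the potassium channel gene Kcnq5. Each of these 8 lost its call without MCAO/R + WT replicate 1, where 0 genes were called higher. Those lower included -6.74 for Igf2 and -4.84 for Igfbp2, both on the choroid plexus list. All 14 Igf2 UMIs of MCAO/R + WT were in 1 cell of replicate 2, and without that library the difference turned to 4.02. Other lower values were -5.34 for Mt3, -4.59 for Ccnd1, -4.5 for Rasl11a, -4.23 for Vat1l, -4.23 for G0s2, -4.18 for Kcnk1, -4.08 for Slc7a11 and -3.76 for Ramp1. The rest of the named genes were -3.57 for Anxa6, -3.46 for Tmem100, -2.85 for Id2, an inhibitor of differentiation, and -3.28 for the adhesion receptor gene Cd44. Cd44 turned to 0.49 with at least 10 cells, and its levels overlapped, at 346 and 3.66 CPM in MCAO/R + WT and 0, 6.82 and 339 CPM in MCAO/R + Lrg1-/-. Ramp1 was at 147 and 150 CPM in the chosen cells of MCAO/R + WT and at 18.0, 27.3 and 33.9 CPM in MCAO/R + Lrg1-/-, and Tmem100 at 118 and 132 against 35.9, 27.3 and 0 CPM. Genes on no list, such as these, were named only where the groups did not overlap, so the lack of overlap adds no support.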

How the results depend on the processing

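Counts of called genes moved with the setting, and the cause was not tested where none is given. For Lrg1-/- minus WT after MCAO/R, the 64 calls at 10 or more cells became 9 with DESeq2 and 9 on cells thinned to 1000 UMIs, where fewer genes were tested. With at least 5 cells there were 3, then 3 with DESeq2's size factors, 10 with DESeq2, 49 with no filter on low counts (48 at 10 cells), 4 thinned, 2 without doublets, 3 in cells with at least 3 of the 8 other precursor markers and under 5% haemoglobin, 5 with the replicate block, 0 in the MCAO/R libraries fitted alone and 0 in cells with Pdgfra. Cells with no marker of another type left 3 libraries, 1 residual degree of freedom and 1750 genes, and their 32 calls are not comparable with these. For MCAO/R in WT the 4 calls became 43 with no filter on low counts (32 higher, 11 lower) and 2 thinned, both lower, so that no gene was called higher there. In Lrg1-/-, 0 became 20 unfiltered, 4 thinned and 1 with the replicate block. The 2 sham genotype calls became 9 with DESeq2, 39 unfiltered, 12 thinned, 4 in the marker-rich cells and 4 with the replicate block. The interaction went from 0 to 11 unfiltered and 1 thinned, and the mean MCAO/R effect from 3 to 8, 45 and 1 with DESeq2, unfiltered and thinned. The difference from mature cells went from 21 to 11 unfiltered and 2 thinned for MCAO/R, and from 48 to 4 thinned for genotype, with 28 and 1 unfiltered and thinned at 10 cells.

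Leaving out 1 library gave 0 to 5 calls for genotype after MCAO/R (0 without MCAO/R + WT replicate 1, and 4, all lower, without replicate 2), 0 to 7 for MCAO/R in WT, 0 to 3 in Lrg1-/-, 1 to 10 for genotype in sham (6 without either MCAO/R + WT library), 0 for the interaction and 0 to 12 for the mean. The difference from mature cells gave 2 to 67 calls for MCAO/R (2 without MCAO/R + WT replicate 1, 67 without MCAO/R + Lrg1-/- replicate 1) and 4 to 57 for genotype (4 and 14 without MCAO/R + WT replicates 1 and 2, 23 without MCAO/R + Lrg1-/- replicate 5). Shares ranged from 0.0234 to 0.0667 points for MCAO/R and from -0.0358 to 0.00748 for genotype, which turned positive without MCAO/R + WT replicate 2. The share of cells with Gpr17 or Neu4, lower by 19.1 and 12.8 points after MCAO/R and in Lrg1-/- as a description, ranged from -24.1 to -13.7 and from -17.8 to -7.38. On cells thinned to 1000 UMIs these differences were -22.5 and -5.88 points. Both genes belong to the rule, and a cell without Pdgfra had to carry 1 of them. The choice of cells thus sets part of these shares, and nothing is concluded from them.

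The MCAO/R share difference was 0.0328 points (exact permutation p = 0.02) for cells with no marker of another type and -0.544 relative to the oligodendrocyte lineage. The genotype difference was -0.0376 (exact permutation p = 0.015) under the rule on thinned cells, 0.00275 among cells under 5% haemoglobin and 0.628 relative to the lineage. The rule on thinned cells left 0 chosen cells in sham + Lrg1-/- replicates 2 and 5, and the p-values of these settings are unadjusted. Of 707 alternatives for 70 named gene results, 469 kept the call, 236 lost it and 2 turned: Cd44 at 10 cells (0.49) and Igf2 without MCAO/R + WT replicate 2 (4.02). These counts leave out alternatives in which the gene was not tested. At 10 cells the MCAO/R libraries alone gave the same fit again, so 469 overstates how well calls held. Same-numbered libraries correlated at -0.228 to 0.493 and differently numbered ones at -0.409 to 0.267. With so few libraries a group, this cannot decide whether the numbers pair mice, and no label says that they do. With the block, MCAO/R in WT, the mean effect and the interaction gave 3, 3 and 0 calls. Fits at 20 cells, and with the block, without marker-bearing cells or without 1 library at 10 cells, could not be run with too few libraries. Depth limits every result: 1 UMI was worth 3.66 to 82.6 CPM.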
